A study of Mus musculus with 8 samples.

Results

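The genes described here are 10 genes known from neutrophils: the stefin A genes Stfa1, Stfa2 and Stfa3, the alarmin genes S100a8 and S100a9, and the granule or secreted protein genes Camp, Ngp, Ltf, Lcn2 and Retnlg. They were taken by gene name from the non-control probes of a mouse array and are 10 of 34790 gene names measured. The genes were chosen with their values on these arrays known, so what follows describes them and tests nothing.

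Total RNA from the back skin of female C57BL/6 mice was hybridised to 8 one-colour arrays, 1 per group. The shaved control was taken immediately after shaving, and the others after hair was plucked with wax: 12 h, then 1 d and 2 d, then 4 d, 6 d and 10 d, and last 50 d after. Per the labels the mice were 10 weeks old in the control and up to 4 d, 11 weeks for the 6 d and 10 d samples and 17 weeks for the 50 d sample, while the treatment protocol states a younger age. The labels call the material adipose cells, whereas the design text describes the tissue around the follicles, dermis included, from mice that had been waxed once before to synchronise their hair growth. With 1 sample per group there was no replicate check, age and time cannot be told apart at 6 d and later, and no p-value is given. In such tissue, fewer cells of a type and less RNA per cell cannot be told apart.

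Neutrophils are short-lived white blood cells that enter injured skin early. They make their granule proteins in sequence while they mature in bone marrow, primary granule proteins first and then those of the later granules, so a mature neutrophil in tissue holds many granule proteins whose mRNA it no longer makes. S100a8 and S100a9 pair to form calprotectin, a metal-binding alarmin, and the stefins inhibit cysteine cathepsins. S100a8, S100a9, Lcn2 and several stefins are also made by stressed keratinocytes.

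The stefin genes lie in one cluster on chromosome 16 and are near copies of each other. Their RefSeq promoters, 300 bases each on build GRCm38.p6, of which 250 lie before the start and 50 from it on, were 79.3% to 81.0% identical between pairs. The last 80 bases before each start are shown because they hold 2 runs of 13 bases common to all 3 genes, in capitals. The first was found in 4 of 32851 promoters, those of the 3 stefins and Col10a1. The second was found in 9, those of Stfa1, Stfa2, Stfa3, Stfa2l1, Csta3, Cstdc3, Cstdc4, Cstdc5 and Gm7260. Stfa1 is from chr16:36277068-36277147 on the plus strand, Stfa2 from chr16:36408364-36408443 and Stfa3 from chr16:36455393-36455472 on the minus strand.
Stfa1: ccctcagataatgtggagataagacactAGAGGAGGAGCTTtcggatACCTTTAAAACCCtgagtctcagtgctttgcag
Stfa2: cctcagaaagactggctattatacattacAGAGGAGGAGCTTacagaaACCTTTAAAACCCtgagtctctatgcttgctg
Stfa3: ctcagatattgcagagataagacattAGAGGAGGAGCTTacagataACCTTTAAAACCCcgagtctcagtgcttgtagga

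The probes are similar too, which matters for reading their values. Below are the 30 bases over which the Stfa1 and Stfa2 probes match best, identical at 25 positions, and those over which the probe of Stfa3 and that of its neighbour BC100530 (now Cstdc5) match best, identical at 27. Capitals mark identical bases. The Stfa3 probe also matched that of Gm5483 (now Cstdc4) at 28 of 30 bases. How much transcript of one gene binds the probe of another was not tested.
Stfa1 probe: CAgTGgAAAGAGATtCaGCCATgAATAAAG
Stfa2 probe: CAtTGtAAAGAGATgCgGCCATcAATAAAG
Stfa3 probe: ACTaACAAAACCAAGacTGATGAGCTGACC
BC100530 probe: ACTgACAAAACCAAGgaTGATGAGCTGACC

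C/EBP factors direct the later granule genes in maturing neutrophils, and 2 granule genes are shown for that motif. The 150 bases before the start of Ngp (chr9:110419658-110419807, plus strand) hold it at 2 places and the 100 bases before Ltf (chr9:111019192-111019291, plus strand) at 1, in capitals. The letters TTGCNNAA, searched on both strands, were in the promoters of 6 of the 10 genes (Stfa1, S100a9, Ngp, Ltf, Lcn2 and Retnlg) and in 10.8% of all promoters of that length. In all 7 motifs were searched on both strands. AP-1 (TGANTCA) matched Stfa3 alone, 29 bases past the start (7.81% of promoters), PU.1 (GAGGAAG) matched Stfa1, S100a8 and Lcn2 (13.6%), and TATAAA matched S100a8 and, at the start itself, S100a9 (13.6%). No member held either of 2 forms of the NF-kB motif (1.47% and 1.63% of promoters) or the STAT form TTCCNGGAA (1.15%). These motifs and the stretches printed were picked after the matches were seen, and a match is a string of letters, not a site shown to be bound.
Ngp: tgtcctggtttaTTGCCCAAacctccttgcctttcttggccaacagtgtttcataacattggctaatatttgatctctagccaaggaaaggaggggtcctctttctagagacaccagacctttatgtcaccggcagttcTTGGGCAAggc
Ltf: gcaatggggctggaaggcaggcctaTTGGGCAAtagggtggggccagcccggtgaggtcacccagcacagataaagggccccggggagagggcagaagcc

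Levels are given on the log2 scale relative to the 75th percentile of the array, so a level of 0 equals that percentile. Of the 10 genes, 8 were well above background on all 8 arrays, Stfa1 on 7 and Ngp on 1. Levels are compared between arrays for 1 probe at a time and not between genes, except in the summed signals of gene lists. In such a sum a brighter probe weighs more. Every member probe had 1 spot per array. Probes printed in many spots had a median SD between spots of 0.059 to 0.094 (log2) per array, and different probes of a gene had a median SD of 0.15 to 0.18 in their difference from the control. These errors are technical and leave out the spread between mice. A gene counts as higher or lower here if it lay 2-fold or more from the control and its brighter array showed it well above background. Where 8 levels are listed, they run in order of time: the control, 12 h, 1 d and 2 d, then 4 d, 6 d and 10 d, and last 50 d. All 7 comparisons share the single control array, so an unusual value there would enter every one of them. The 10 d array alone had a spike-in slope outside its range per the file header, a limit on every 10 d value below.

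At 12 h, 6 of the 10 genes were at least 2-fold higher than in the shaved control (Stfa1, Stfa2, Stfa3, S100a8, S100a9 and Lcn2), against 3.3% of all genes, and 1, Retnlg, was lower, against 2.79%. The median difference of the 10 genes was 2.86, against -0.073 over all genes. At 1 d, 5 were higher (background 2.29%) and 1 lower (2.56%), with a median of 0.81. At 2 d, 4 were higher (2.2%) and 1 lower (2.88%), with a median of 0.57. The counts then turned: at 4 d, 4 were higher (4.95%) and 3 lower (5.41%), and at 6 d, 1 was higher (3.58%) and 4 were lower (1.76%), with medians of 0.35 and -0.64. At 10 d, 3 were higher (3.28%) and 2 lower (1.73%), and at 50 d none was higher (2.23%) and 2 were lower (3.58%), with medians of -0.23 and -0.25. Since the genes were picked with these differences known, nothing is read from their counts against the background. Some calls lie at the 2-fold line, a log2 difference of 1. S100a9 at 1 d (1.01) and Stfa1 at 10 d (1.01) passed it when the percentile was taken over all spots, and fell short (0.98 and 0.98) when it was taken over probes, which leaves 4 genes higher at 1 d and 2 at 10 d. Retnlg at 12 h (-1.03) and Ltf at 4 d (-1.04) lay just inside the line and Camp at 12 h (0.94) just outside.

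**Figure D1:**
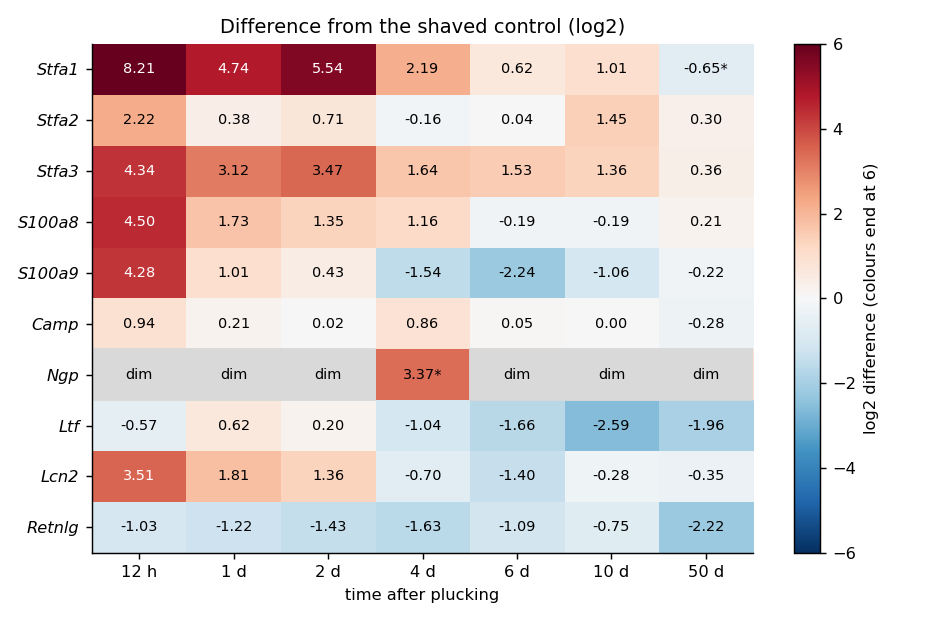
Log2 difference from the shaved control for the 10 genes (rows) at the 7 times after plucking (columns), 1 array each, with the value in each cell. An asterisk marks a bound from an array where the gene was not well above background, and dim marks cells with no fold. Stfa1 has the largest differences, 8.21 at 12 h and 5.54 at 2 d, while Retnlg is below the control at all 7 times.

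Stfa1, a cytosolic cathepsin inhibitor, had the widest range of the 10 genes. Its levels were -4.69, 3.53, 0.055, 0.85, -2.50, -4.06, -3.67 and -5.35, the last not well above background. The 12 h array was the highest, and every array up to 10 d stood above the control. The difference was 0.62 at 6 d and 1.01 at 10 d. The 50 d array was the lowest. Stfa1 was 297-fold higher at 12 h than in the control, and 26.8-fold, 46.6-fold and 4.55-fold higher on the 1 d, 2 d and 4 d arrays. The control's own value was close to the lowest level well above background on that array (-5.10). With another background correction (normexp) the 12 h difference was 6.60 in place of 8.21, and the lowest array was that of 6 d. Stfa3 followed the same order over the early arrays, with levels of -2.30, 2.04, 0.82, 1.17, -0.66, -0.77, -0.94 and -1.94, and the control was its lowest array. It was 20.2-fold higher at 12 h and still 2.56-fold higher at 10 d, and its levels at 4 d, 6 d and 10 d stepped by no more than the spread between probes. Both genes were higher at 2 d than at 1 d, by 0.80 for Stfa1 and 0.35 for Stfa3.

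Stfa2 differed from its neighbours. Its levels were -2.53, -0.31, -2.15, -1.82, -2.69, -2.49, -1.08 and -2.23. It had 2 high arrays, 12 h at 4.65-fold and 10 d at 2.73-fold over the control, with the 1 d, 4 d and 6 d arrays within 0.38 of the control. Also high at 12 h were 4 neighbouring genes of the cluster. BC100530 was 61.0-fold higher, Stfa2l1 12.8-fold, Gm5483 at least 14.6-fold and 2010005H15Rik (now Csta2) 2.97-fold. That made 4 of 9 other stefin and cystatin genes higher and none lower. BC117090 (now Cstdc6) and Csta (now Csta1), which lie in the cluster too, were well above background on no array. Cstb, Cst3 and Cst6, also among the 9, lie on other chromosomes. The probes most like that of Stfa3 ran apart after 12 h. BC100530 stayed higher through 10 d, at 4.33-fold at 4 d and 4.85-fold at 6 d, while Gm5483 was not well above background on the 4 d, 6 d and 10 d arrays. Stfa2l1 had its second highest level at 10 d (-3.21), as Stfa2 did. Of the 7 cathepsins on which stefins act, none was higher at any time. Those lower numbered 1 (Ctsh) at 12 h, 3 at 1 d, 4 at 2 d and 3 at 4 d. None was lower at 6 d or 10 d, and 3 were lower at 50 d.

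**Figure D2:**
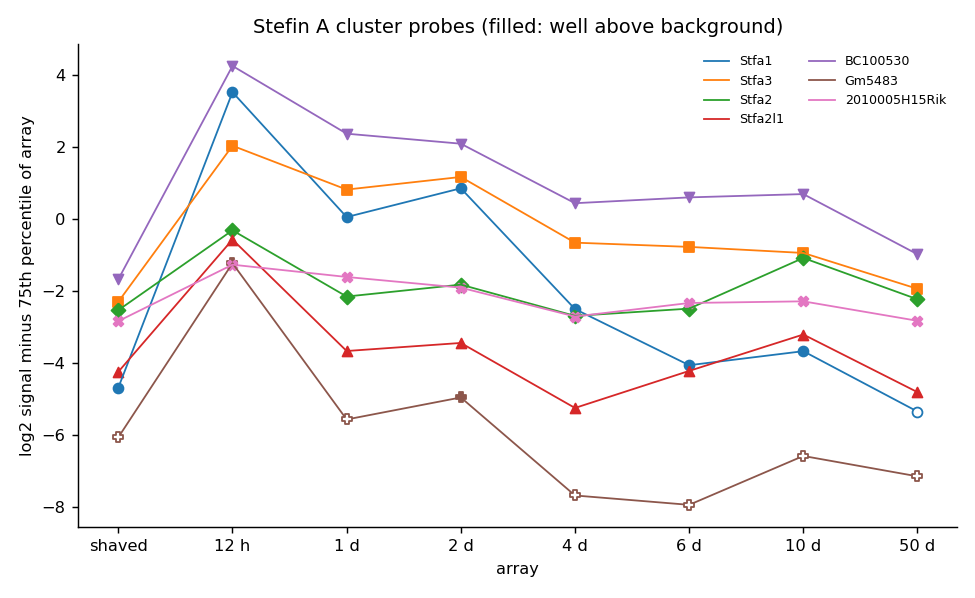
Level (log2 signal minus the 75th percentile of the array) of 7 stefin A cluster genes on the 8 arrays, 1 probe each, with filled symbols where the probe was well above background. All 7 are highest at 12 h, and Stfa2 and Stfa2l1 have a second high value at 10 d. BC117090 and Csta, cluster genes well above background on no array, are not shown.

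S100a8 and S100a9, the calprotectin pair, lie near each other on chromosome 3, with probes at chr3:90473778-90473837 (plus strand) and chr3:90496573-90496632 (minus strand) of build mm9. S100a8 had levels of -0.39, 4.11, 1.34, 0.96, 0.77, -0.58, -0.58 and -0.18. S100a9 had levels of 1.11, 5.38, 2.11, 1.54, -0.43, -1.14, 0.046 and 0.88. Both were highest at 12 h and lowest at 6 d, where S100a8 did not differ from its 10 d level beyond the spread between probes. At 12 h the pair stood 22.6-fold and 19.4-fold above the control, a difference between them of 0.22. They then parted: at 4 d S100a8 was 2.24-fold higher and S100a9 2.91-fold lower, 2.70 apart, and at 6 d S100a8 was at -0.19 and S100a9 4.73-fold lower, 2.05 apart. By 50 d both were within 0.23 of the control. The pair was compared after its values were seen. Of 13 other S100 genes, 3 were higher at 12 h and 4 at 4 d, led at 4 d by S100a3, a hair cuticle gene (55.0-fold), and S100a14 (16.1-fold), and none was lower at either time.

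**Figure D3:**
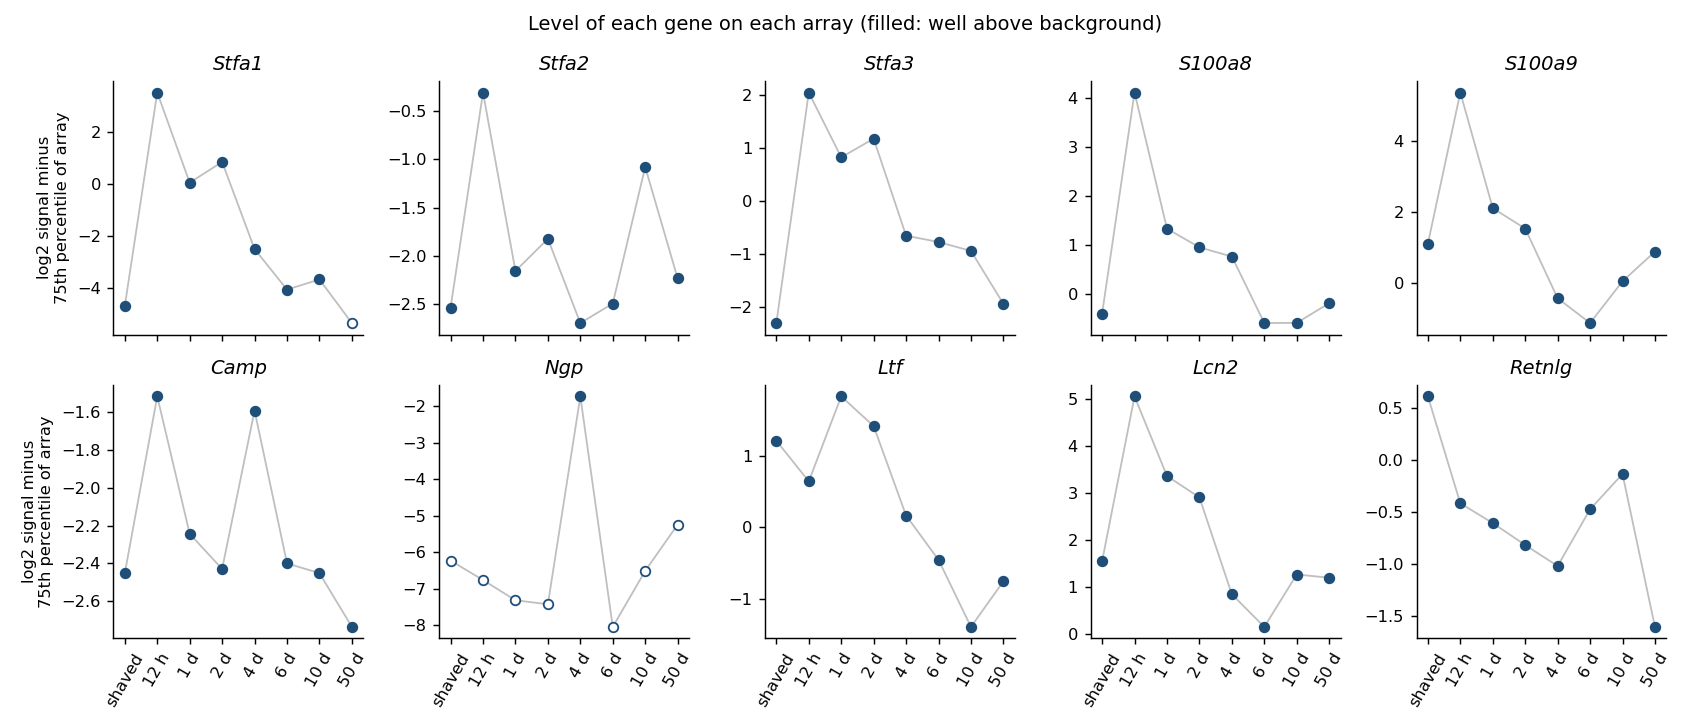
Level of each of the 10 genes on the 8 arrays (log2 signal minus the 75th percentile of the array; each panel has its own scale), filled where well above background. Stfa1, Stfa2, Stfa3, S100a8, S100a9, Lcn2 and Camp peak at 12 h, Ltf at 1 d, Ngp at 4 d, and Retnlg is highest in the shaved control.

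Lcn2, a siderophore-binding protein of the later granules that keratinocytes also make, was highest at 12 h too. Its levels were 1.55, 5.05, 3.36, 2.91, 0.85, 0.15, 1.27 and 1.20. The 12 h, 1 d and 2 d arrays stood 11.4-fold, 3.51-fold and 2.56-fold above the control, and the 6 d array 2.63-fold below it. Ltf, the iron-binding lactoferrin, had another course, with levels of 1.21, 0.64, 1.82, 1.41, 0.16, -0.45, -1.39 and -0.75. It was highest at 1 d, did not pass the line at 12 h (-0.57), and was lower on all 4 arrays from 4 d on, by 2.06-fold, 3.16-fold, 6.03-fold and 3.88-fold. Camp, the cathelicidin precursor, varied least of the 10 genes, with levels of -2.45, -1.52, -2.24, -2.43, -1.59, -2.40, -2.45 and -2.74. It passed the 2-fold line at no time, and its 12 h and 4 d levels, the highest pair, did not differ beyond the spread between probes. A second Camp probe, which shares 40 of its 60 bases with the first, ranged over 0.70 and was also highest at 12 h.

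Ngp, a cystatin-like protein of the later granules, was well above background on 1 of 8 arrays, that of 4 d, with levels of -6.23, -6.76, -7.31, -7.42, -1.73, -8.04, -6.51 and -5.24. There it was at least 10.3-fold above the control and at least 8.49-fold to 18.0-fold above the other arrays. That value rests on 1 spot, and its pixels were uneven. Their SD was 42.5% of the mean, against a median of 14.7% in 4022 spots of like brightness on that array, of which 0.174% were as uneven, and 4 pixels were high outliers. Mmp8, neutrophil collagenase, which was at least 3.86-fold above the control at 4 d, had a spot of the same kind (38.3%, with 0.187% of like-bright spots as uneven). Bpi, the primary granule gene counted as higher at 4 d (2.05), had a spot at 22.0% against a median of 16.9%. Of its like-bright spots, 7.35% were as uneven. A second Bpi probe was well above background on no array, with a difference of -0.43 at 4 d. The S100a9 spot at 4 d was even, at 5.91%. Whether the pixels account for the Ngp value was not tested, and these spots were looked at after the values were seen. On the 4 d array 143 genes were well above background that were so on no other array, against 31 to 373 for the other arrays.

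**Figure D4:**
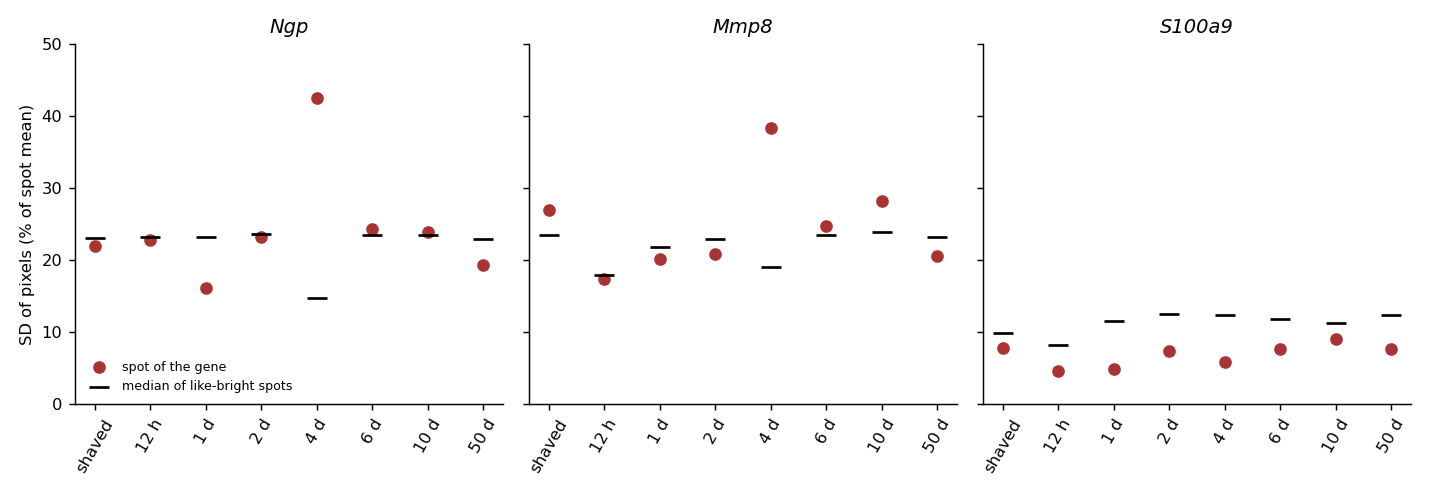
SD of the pixels of a spot as a percentage of its mean (vertical axis) on each array (horizontal axis) for Ngp, Mmp8 and S100a9, with bars at the median of spots of like brightness. At 4 d the Ngp spot is at 42.5% and the Mmp8 spot at 38.3%, far above their bars, and the S100a9 spots lie below theirs.

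Retnlg, a resistin-like protein of neutrophils, was highest in the shaved control. Its levels were 0.61, -0.42, -0.61, -0.82, -1.02, -0.47, -0.14 and -1.61. It lay at least 2-fold below the control at 6 of the 7 times, 10 d being the exception, and was 4.65-fold lower at 50 d. Since 50 d was also its lowest array, the direction turns when that array is the reference: Retnlg at 12 h was then 1.19 higher. Retnla and Retn, 2 related genes that fat and its macrophages make, were -1.12 and -0.32 at 12 h.

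Other genes of neutrophils were unequal at 12 h. Of 14 neutrophil surface genes, 6 were higher and none lower, among them the lectin Clec4d (13.6-fold), the chemokine receptor Cxcr2 (8.84-fold) and the formyl peptide receptor Fpr1 (2.51-fold), while Ly6g (-0.40) and Csf3r (0.18) did not pass the line. Of 11 other later granule genes, 5 were higher, including Mmp8 (at least 4.09-fold), Slpi (4.62-fold) and Chi3l3 (now Chil3, 4.00-fold), and 1, Lyz2, was lower. Of 6 primary granule genes, 1 was higher and 1 lower. Of 12 neutrophil attractants and growth factors, 8 were higher and none lower, with Cxcl5 at 43.5-fold and Cxcl1 at 3.15-fold. At 50 d, 5 of these 12 were higher (Cxcl2, Ppbp, Csf2, Il1b and Il6) and none lower, and Cxcl2, Csf2 and Il6 had their highest level there. Among 5 transcription factors of the neutrophil line, Gfi1 was higher at 12 h (1.15) and Cebpe, a C/EBP factor of late granule formation, lower (-1.87); Cebpe was also lower on the 1 d, 2 d, 4 d and 50 d arrays (-1.37, -1.92, -2.19 and -1.50). At 4 d, 6 of the 14 surface genes were lower and none higher, with Fpr1 at -1.46 and Ly6g at -1.46. On that array all 6 macrophage markers were lower too (median -1.48), as were 2 of 3 platelet markers (median -1.49). Of the surface genes, 4 were lower and 1 higher at 2 d, and 5 were lower and none higher at 50 d. The 50 d array also had 4 of 6 macrophage markers lower (median -1.15) and 1 of 3 platelet markers.

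Markers of other cells moved on the same array. At 12 h all 9 stressed keratinocyte genes were higher (median 5.16, Krt6b at 35.8-fold and by a second probe 12.0-fold). So were all 7 epidermal keratinocyte genes (median 2.68). All 4 B cell markers (median 4.19, Ms4a1 at 52.7-fold) and 3 of 4 T cell markers were also higher. Of 6 macrophage markers none was higher and 2 were lower. From 12 h to 1 d, the log2 of the summed signal went from 5.80 to 4.27 for the stressed keratinocyte list, from 4.68 to -0.39 for B cell markers and from 3.42 to 1.51 for T cell markers, and from 6.83 to 7.93 for the epidermal list. Over the same step Stfa1, Stfa2, Stfa3, S100a8, S100a9 and Lcn2 differed by -3.47, -1.84, -1.22, -2.77, -3.27 and -1.69. The stressed keratinocyte sum was 2.59 in the control, the epidermal 4.62, the B cell 0.41 and the T cell 1.28, and every gene of these lists was well above background on at least 1 array. In the epidermal sum at 1 d, Lor alone was at 6.79. The stressed keratinocyte sum was 5.72 at 4 d, where Krt17 alone was at 5.63. On that array 5 of the 9 genes were higher than in the control and 1, Sprr2d, was lower (median 1.04). What part epidermis, lymphocytes or neutrophils had in the 12 h values was not tested. Erythroid markers were highest at 10 d, where 4 of 5 were higher than in the control; that array's spike-in slope was outside its range per the file header. Adipocyte markers had a summed level of 8.15 to 9.37, with Fabp4 at 7.49 to 8.68 and Lep at -1.32 to 0.50.

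**Figure D5:**
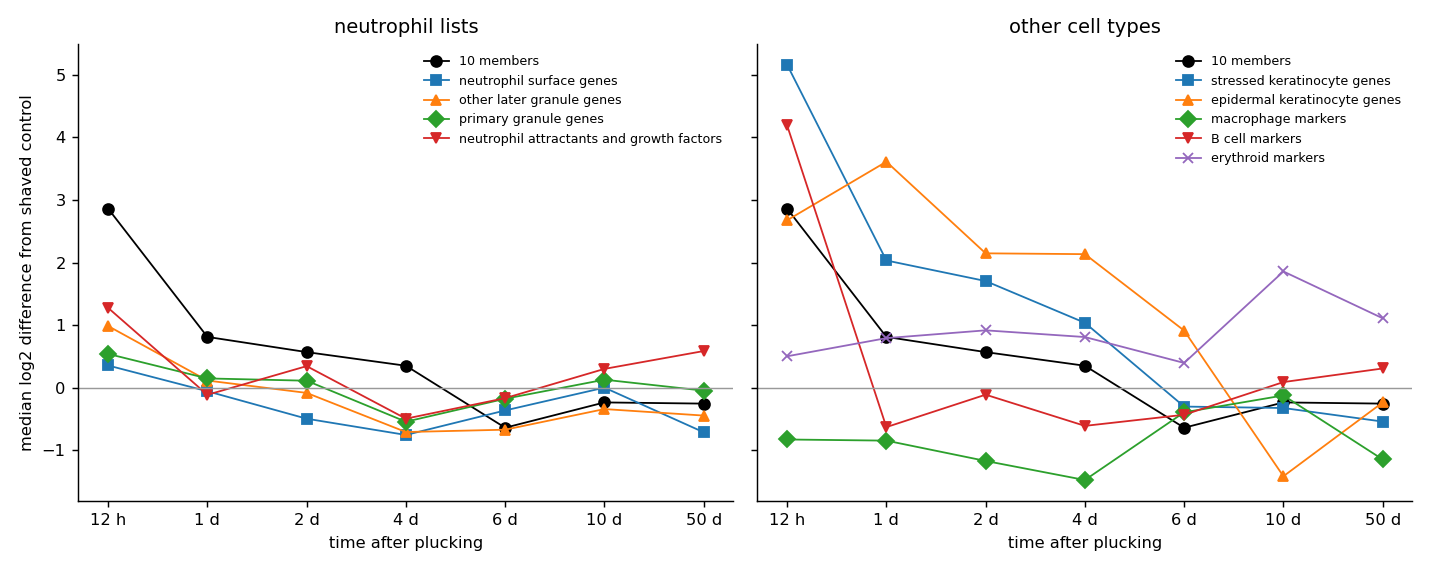
Median log2 difference from the shaved control (vertical axis) at the 7 times (horizontal axis) for the 10 genes, in black on both sides, beside neutrophil lists (left) and lists of other cell types (right). At 12 h the 10 genes are at 2.86, stressed keratinocyte genes at 5.16 and neutrophil surface genes at 0.36.

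The genes whose levels ran most like those of 3 members over the 8 arrays were found by Pearson's r, as a description, among 1872 genes with a proper symbol, a range of at least 2 (log2) and a level well above background on at least 1 array. For S100a9 they were Ubd (0.99), the protease inhibitor Slpi (0.99), Gimap1 (0.98), Gimap4 (0.97) and Bpifb3 (0.96), all highest at 12 h. For Stfa2 they were Olfr398 (0.93), the chemokine gene Cxcl3 (0.93), Stfa2l1 (0.93), Clec4e (0.93) and Gimap3 (0.92), of which Olfr398 and Cxcl3 were well above background on 1 array. For Ngp they were Prokr2, Defb20, Olfr743, Olfr1353 and Htr3b (0.94 each), every one above background on the 4 d array alone. All 8 points of a gene come from the same 8 arrays. By rank correlation in place of Pearson's r, 0 of the 5 genes stayed among the 5 most similar for S100a9, and 2 for Stfa2 and for Ngp. Other genes then ranked higher, but the 5 listed for S100a9 still had rank correlations of 0.90 to 0.98. Those listed for Stfa2 had 0.69 to 0.93 and those for Ngp 0.79 to 0.83.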

How the data were processed

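RNA of 8 samples was labelled with Cy3 and read on 8 arrays of 1 slide. Spot intensity, as the authors deposited it, comes per the file headers from Agilent Feature Extraction 10.5.1.1, with background subtracted and dim spots given a surrogate value, and probe positions are on mm9. Exons and UTRs are not given, for want of an mm9 annotation here. Control spots and flagged outliers were left out, no spot was saturated, and 72.9% to 81.2% of spots were well above background. From the deposited intensity, log2 was taken and the 75th percentile of each array's non-control spots subtracted. The percentile was first taken over probe means; the change to spots was made after the values and calls of the members had been seen, and both are reported. The brightest of a gene's probes stood for it, giving 34790 gene names. A fold against an array where the gene was not well above background is a bound, taken against the higher of its own signal and the lowest signal well above background there; medians use the dim array's own value. Members and gene lists were chosen with earlier results of these data known; named genes are all members, up to 4 of a list with the largest difference, any gene of the stefin, S100, resistin, granule and attractant lists, and the 5 most similar genes. Ly6g, Csf3r, Fpr1 at 4 d and the genes of the pixel check were added after values were seen. Of the list genes, Spi1 had no match. The calling code was run on simulated data with every gene taken as above background and shifts well past the line. That checks the code only, not dim genes, calls near the line or the spread between mice. Alternatives used limma 3.58.1 in R 4.3.3; other steps used Python 3.11.15 with pandas 2.3.3.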

Additional observations from a re-analysis of the deposited data

How the results depend on the processing

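No paired analysis was possible because each group has 1 sample and the replicate number is the same in all. Quantile normalization, averaging over probes and requiring both arrays to be above background left the counts of the 10 genes within 1.5 times, and their medians within the spread between probes where recomputed. Centring on probes above background on all arrays gave 0 lower genes at 12 h in place of 1. Without a filter on dim probes, 2 were lower at 1 d and 2 at 2 d, the second being Ngp. With normexp background correction the median was 2.67 at 12 h, -0.044 at 10 d and, with its sign turned, 0.044 at 50 d. Single genes were less stable under it: 36 of their differences from the control or ranges over the arrays moved by at least the spread between probes. The remaining 44 moved by less. At 1.5-fold, 2 genes were higher at 6 d. At 4-fold, 0 were lower at 12 h, 1 d, 2 d and 4 d and 1 at 6 d, 10 d and 50 d; 2 were higher at 1 d, 2 d and 4 d and 0 at 6 d and 10 d.

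With the 50 d array as reference, 0 genes were lower for the 12 h, 1 d, 2 d and 10 d arrays, 1 for 4 d and 2 for 6 d, 3 were higher at 6 d, and the medians for the 1 d, 2 d and 4 d arrays were 1.37, 0.96 and 0.93, with the sign turned at 6 d (0.019) and 10 d (0.18). Retnlg on the 5 arrays from 12 h to 6 d was then 1.19, 1.00, 0.79, 0.59 and 1.13, and Ltf 0.92 at 4 d and 0.30 at 6 d, all turned from lower to higher. Chosen after seeing the data, the percentile over probes gave 4 higher genes at 1 d in place of 5 and 2 at 10 d in place of 3. The cause of these changes was not tested. The lists of similar genes kept 4 of 5 genes for Stfa2 and S100a9 and 3 for Ngp under quantile normalization. The number of arrays, 1 per group, limits every value, and dim genes (Ngp, and Stfa1 in the control) are limited by signal over background.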
